A study of Mus musculus with 6 samples.

Results

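Homeobox transcription factors that mark regions of the brain were compared between 5 olfactory bulb libraries and a sixth library whose RNA did not match its bulb label, and then between the plugged and the open side within the 5 bulb libraries. The 48 genes form a list of symbols, all 48 of which were found by identifier among the 22095 genes of the count table. All RNA came from 3 outbred ICR mice. A silica gel plug was placed in the left naris of each at postnatal day 30, and both bulbs were dissected 60 days later, after perfusion with saline. Left bulbs thus belong to the plugged side, and right bulbs to the open side of the same animal. Every mouse had a plug, so a left-right difference present without occlusion cannot be told apart from one that follows it. Polyadenylated RNA was sequenced from each bulb, and the mice, numbered 1037, 1038 and 1039, serve as replicates.

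A homeobox gene encodes a homeodomain, a DNA-binding fold that reads short AT-rich sites, many with a TAAT core. During development these factors divide the neural tube into regions. Otx and Emx genes act in the forebrain and midbrain. En, Gbx and some Pax genes act around the boundary of midbrain and hindbrain, where the cerebellum arises. Irx, LIM and POU genes act within regions to set neuron types. Several of all these genes stay on in adult neurons, so their RNA carries a trace of where a tissue came from. Hox genes, the homeobox genes of the body axis, are used from the hindbrain behind the cerebellum backwards.

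The libraries held 14571453 to 15590938 counts, given below as CPM, counts scaled to the same library total. A gene with 0 reads may still have had up to 3 counts, or 0.192 to 0.206 CPM. Such limits, and all intervals below, cover counting error only. The library labelled left 1038 goes against its label. All 7 listed markers of cerebellar granule cells and all 5 of Purkinje cells lay over 4-fold above the median of the other 5 libraries in it, with a summed level of 5850 CPM against 222 to 313 CPM for the former and 2261 CPM against 30.6 to 42.3 CPM for the latter. Of 5 markers of bulb projection neurons 3 lay over 4-fold lower, and of 6 markers of bulb interneurons and sensory axons 4 did. Markers of cortex and hippocampus, with Emx1 among them, had 3 of 5 lower. Of all 14066 genes that reached 1 CPM in this library or in that median, 3.56% were counted as higher and 8.74% as lower in the same way. Of 3 Bergmann glia markers 2 lay over 4-fold higher, and the 3 summed to 1667 CPM against 849 to 968 CPM. Most of that sum was Slc1a3, at 1409 CPM against 817 to 928 CPM, only 1.55-fold above the median. The 39 Hox genes together held 1.85 CPM in this library, with 32 of them at 0, and 0.0648 to 0.597 CPM in the others. It is called the library labelled left 1038 throughout, the other 5 are called the bulb libraries, and how its RNA came to carry this label was not tested.

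The bases before the transcription start are shown for 5 of the genes that differed most between the library labelled left 1038 and the bulb libraries, 3 of them higher and 2 lower there, whose windows hold no annotated exon. Each window covers the 250 bases before the start given by RefSeq (build GRCm38.p6), taking the start farthest upstream among such windows. These starts need not be the ends of the gene spans in the GENCODE annotation, from which the gene coordinates below are taken. The Otx2 window lies inside its span, those of Pax2 and Vax1 lie apart from and upstream of theirs, and those of Irx2 and Lhx2 adjoin theirs. It is read 5′ to 3′ on the strand of the gene, and capitals mark the homeodomain core TAAT (ATTA on the other strand).
Otx2 (chr14:48667645-48667894, minus strand): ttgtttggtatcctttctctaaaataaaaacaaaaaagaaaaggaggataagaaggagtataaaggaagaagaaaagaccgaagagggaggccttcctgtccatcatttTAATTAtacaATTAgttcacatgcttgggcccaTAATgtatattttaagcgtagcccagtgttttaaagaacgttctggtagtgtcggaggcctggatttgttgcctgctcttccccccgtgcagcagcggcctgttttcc
Pax2 (chr19:44746351-44746600, plus strand): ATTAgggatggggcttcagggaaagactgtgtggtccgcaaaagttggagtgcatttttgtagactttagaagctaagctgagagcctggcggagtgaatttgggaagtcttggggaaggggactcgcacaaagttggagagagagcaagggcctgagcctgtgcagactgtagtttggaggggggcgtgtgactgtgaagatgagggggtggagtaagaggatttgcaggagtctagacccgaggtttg
Irx2 (chr13:72628570-72628819, plus strand): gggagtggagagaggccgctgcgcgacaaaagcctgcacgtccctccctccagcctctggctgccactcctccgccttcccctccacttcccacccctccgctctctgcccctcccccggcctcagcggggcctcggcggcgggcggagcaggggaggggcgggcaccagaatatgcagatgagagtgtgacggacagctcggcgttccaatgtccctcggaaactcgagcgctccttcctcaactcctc
Lhx2 (chr2:38339031-38339280, plus strand): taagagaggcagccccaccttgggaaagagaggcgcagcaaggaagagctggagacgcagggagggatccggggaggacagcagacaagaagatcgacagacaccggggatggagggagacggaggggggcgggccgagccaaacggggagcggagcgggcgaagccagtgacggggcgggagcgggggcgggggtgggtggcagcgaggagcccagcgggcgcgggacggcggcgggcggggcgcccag
Vax1 (chr19:59170398-59170647, minus strand): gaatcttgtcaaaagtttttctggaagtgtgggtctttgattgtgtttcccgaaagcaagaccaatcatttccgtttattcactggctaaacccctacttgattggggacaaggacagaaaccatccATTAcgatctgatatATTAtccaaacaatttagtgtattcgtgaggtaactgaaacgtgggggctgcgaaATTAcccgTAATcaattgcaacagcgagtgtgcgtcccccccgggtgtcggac

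The Otx2 and Vax1 windows, with 42.0% and 44.8% G and C, held 4 TAAT cores each. Pax2 held 1, and Irx2 and Lhx2, with 68.4% and 72.8% G and C, held 0. Windows were found for 38 of the 48 genes. TAAT occurred on either strand in 24 of their 53 windows (45.3%) and in 54.9% of all 32851 windows of that length. The longer palindrome TAATTA, which contains a TAAT on each strand, was in 2 of the 53 windows (3.77%) and in 4.84% of all, and 1 of the printed windows, that of Otx2, holds it. The Otx-preferred form TAATCC, whose other strand was searched too, was in 2 of 53 (3.77%) and in 6.25% of all. These matches describe letters only.

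Of the 48 genes, 36 reached 1 CPM in the library labelled left 1038 or in the median of the bulb libraries. In the library labelled left 1038, 11 of these lay over 4-fold above that median and outside the range of the 5, 9 lay over 4-fold below it and outside the range, and 16 did neither. Over all 14066 genes that reached 1 CPM the same counts were 501 (3.56%) and 1230 (8.74%). The median size of the log2 difference, without its sign, was 2.84 over the 36 genes and 0.47 over all genes. These genes were listed with earlier results of these data known, and the sixth library is a single one, so no test was made and the counts are a description. In bulk tissue fewer cells of a type and less RNA per cell cannot be told apart.

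**Figure D1:**
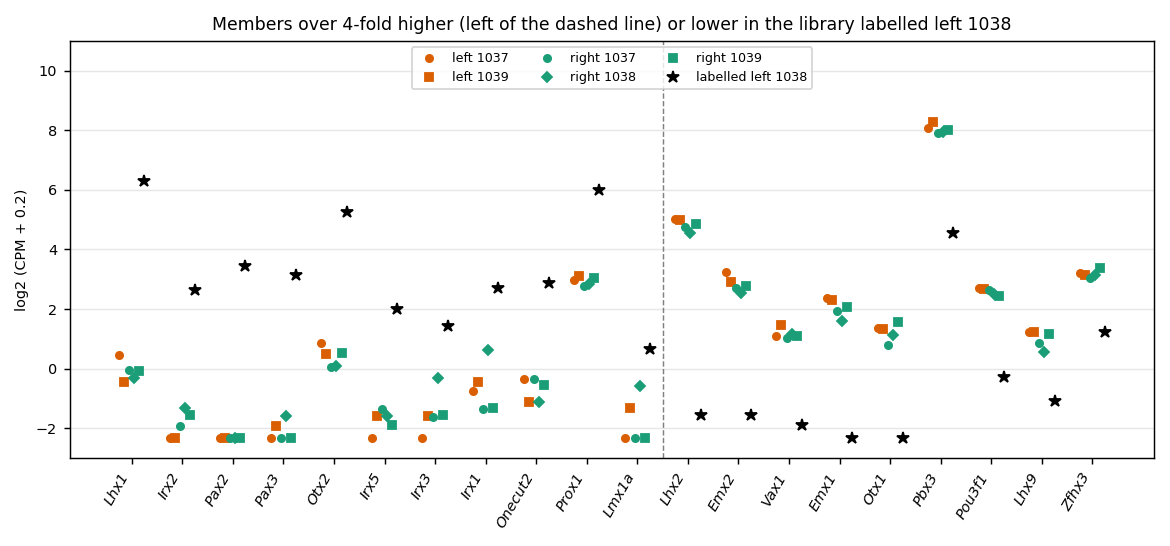
Level of the 20 genes that differed over 4-fold, as log2 (CPM + 0.2) on the vertical axis, with 1 point per library (orange left, green right bulb libraries, black star the library labelled left 1038). Stars lie above all 5 bulb points for the 11 genes left of the dashed line, Lhx1 to Lmx1a, and below all 5 for the 9 genes right of it.

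Lhx1, a LIM factor of Purkinje cells, had the largest fold above the bulb median when 3 counts stand in for a 0, which limits the folds of Pax2 and Pax3. Lhx1 (ENSMUSG00000018698, chromosome 11, 84518284 to 84525535 on GRCm38) stood at 1.17 and 0.531 CPM in left 1037 and 1039, at 0.770, 0.596 and 0.751 CPM in right 1037, 1038 and 1039, and at 79.1 CPM (95% Poisson interval 74.6 to 83.8) in the library labelled left 1038. That is 105-fold above the bulb median, and the bulb libraries all lie near 1 CPM. Its close relative Lhx5, from the list of other homeobox genes and chosen after its values were seen, stood at 17.0 CPM there and at 0.331 to 1.30 CPM in the bulb.

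Otx2, known as a factor of the forebrain and midbrain and also of granule cells of the posterior cerebellum and of the choroid plexus, was high in the same library. Otx2 (ENSMUSG00000021848, chromosome 14, 48657677 to 48673819) stood at 1.62 and 1.19 CPM in left 1037 and 1039, at 0.834, 0.861 and 1.23 CPM in right 1037, 1038 and 1039, and at 38.0 CPM (34.9 to 41.2) in the library labelled left 1038, 31.8-fold above the median. The choroid plexus list, with Ttr, Folr1, Kl and Clic6, summed to 23.5 CPM in that library, with Folr1 at 0, and to 188 CPM in left 1037 against 13.8 to 16.7 CPM in the other bulb libraries. Otx2 had 25 reads in left 1037 and 13 to 18 in the other bulb libraries. The part of choroid plexus RNA in these levels was not tested.

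Its paralogue Otx1 went the other way. Otx1 (ENSMUSG00000005917, chromosome 11, 21994764 to 22002897), a cortical factor, stood at 2.40 and 2.32 CPM in the left and at 1.54, 1.99 and 2.73 CPM in the right bulb libraries, and had 0 reads in the library labelled left 1038, at least 11.3-fold lower with 3 counts in place of the 0. All 5 bulb libraries lay above the limit that its 0 allows.

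The 4 Pax genes on the list carry a paired domain and act in the midbrain and hindbrain. In the library labelled left 1038 they split into detected and nearly undetected ones. Pax6, from the list of other homeobox genes and named after its values were seen, stood at 178 CPM there. In the bulb libraries it stood at 74.3 to 90.4 CPM, so it was 2.27-fold higher there, within 4-fold. Pax2 (ENSMUSG00000004231, chromosome 19, 44756045 to 44837871), a factor of cerebellar interneuron precursors, had 0 reads in each bulb library and 10.6 CPM (8.97 to 12.4) in the library labelled left 1038, at least 53.2-fold higher when 3 counts stand in for the 0 of a library. Pax3 (ENSMUSG00000004872, chromosome 1, 78101267 to 78197134) stood at 8.58 CPM (7.14 to 10.2) there, and the 5 bulb libraries held 3 reads in all, 1 in left 1039 and 2 in right 1038. The ratio to the pooled bulb libraries was 217 (95% exact interval 72.5 to 1066), and 521 without right 1038. Pax5 and Pax8 reached at most 0.199 and 0.389 CPM in any library, with 0 and 1 read in the library labelled left 1038.

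All 4 Iroquois genes on the list, TALE factors that sit in 2 genomic clusters and pattern the hindbrain among other tissues, were higher in the library labelled left 1038. Irx1 and Irx2 lie in the cluster on chromosome 13, and Irx3 and Irx5 in that on chromosome 8. Irx4 and Irx6, from the list of other homeobox genes, stood at 0.0686 and 0.206 CPM in the library labelled left 1038. Both stayed under 1 CPM in every library and were not counted as higher. Irx1 stood at 0.389 and 0.531 CPM in left 1037 and 1039, at 0.192, 1.32 and 0.205 CPM in right 1037, 1038 and 1039, and at 6.38 CPM in the library labelled left 1038. Irx2 (chromosome 13, 72628820 to 72634198) stood at 6.04 CPM there against 0 to 0.199 CPM, Irx3 at 2.47 CPM against 0 to 0.596 CPM, and Irx5 at 3.77 CPM against 0 to 0.192 CPM. Relative to the pooled bulb libraries the ratios were 12.1 (95% exact interval 8.27 to 18.0) for Irx1, 76.3 (33.7 to 214) for Irx2, 12.5 (6.67 to 24.6) for Irx3 and 35.8 (16.9 to 87.0) for Irx5.

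Right 1038, which carries the same mouse number as the library that stands apart, was the highest bulb library for Irx1, Irx2 and Irx3. Without it the ratios were 19.4, 122 and 25.0. It was also the highest for Lmx1a, a LIM factor of unipolar brush cells and the choroid plexus, and for Pax3. Its reads for Irx1, Irx2, Irx3, Lmx1a and Pax3 were 20, 3, 9, 7 and 2. Among the other higher genes, it was not the highest for Lhx1, Otx2, Irx5, Prox1 or Onecut2. For Onecut2 it and left 1039 had the fewest reads of the bulb libraries, 4 each, and Pax2 had 0 reads in every bulb library. The mouse number of the library labelled left 1038 is part of a label that its RNA goes against. Whether a shared mouse plays a part was not tested. Lmx1a had 0.464 CPM in right 1038, 0.199 CPM in left 1039 and 0 reads in the other 3 bulb libraries, against 1.37 CPM (0.838 to 2.12) in the library labelled left 1038. Its ratio to the pooled bulb libraries was 10.4 (4.65 to 24.9), and 27.8 without right 1038. The summed granule and Purkinje cell markers were not highest in right 1038, at 232 and 34.2 CPM, within the bulb ranges given above. The glycine transporter Slc6a5 was highest there, at 0.397 CPM against 0 to 0.205 CPM in the other 4, and stood at 33.8 CPM in the library labelled left 1038.

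Prox1 and Onecut2 complete the higher group. Prox1 (ENSMUSG00000010175, chromosome 1, 190118035 to 190170714), a Prospero factor of several granule neuron types, stood at 7.65 and 8.50 CPM in left 1037 and 1039, at 6.61, 7.02 and 7.99 CPM in right 1037, 1038 and 1039, and at 63.4 CPM (59.4 to 67.6) in the library labelled left 1038, 8.29-fold above the bulb median. Onecut2, a Cut factor, stood at 0.265 to 0.583 CPM in the bulb libraries and at 7.07 CPM there, 14.8-fold higher. Its relative Onecut1 had at most 0.0683 CPM in any library.

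Among the genes that were lower, those of the forebrain were close to 0. Lhx2 (ENSMUSG00000000247, chromosome 2, 38339281 to 38369733), a LIM factor of forebrain development, stood at 32.3 and 31.3 CPM in left 1037 and 1039, at 26.5, 23.2 and 28.9 CPM in right 1037, 1038 and 1039, and at 0.137 CPM, or 2 reads, in the library labelled left 1038. The pooled bulb level was 207-fold above it (95% exact interval 57.3 to 1711), so Lhx2 and Lhx1, of the same family, sit at opposite ends of the plot of folds. Lhx9, another LIM factor, stood at 1.26 to 2.14 CPM in the bulb and had 4 reads there, 7.46-fold below the bulb median, with an interval of 2.55 to 24.9 for the pooled ratio that extends below 4-fold.

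Emx1 and Emx2, factors of the dorsal forebrain, were both nearly missing. Emx2 (ENSMUSG00000043969, chromosome 19, 59458372 to 59465357) stood at 9.33 and 7.30 CPM in left 1037 and 1039, at 6.35, 5.56 and 6.55 CPM in right 1037, 1038 and 1039, and had 2 reads in the library labelled left 1038, a ratio of 51.2 (14.1 to 424). Emx1 (ENSMUSG00000033726, chromosome 6, 85187438 to 85204462) stood at 4.99 and 4.71 CPM in the left and at 3.59, 2.85 and 3.96 CPM in the right bulb libraries. It had 0 reads in the library labelled left 1038, 19.2-fold below the bulb median with 3 counts in place of the 0. The lower limit of the exact interval for the pooled bulb ratio was 15.8-fold. Vax1, a factor of the ventral forebrain, stood at 1.86 to 2.59 CPM in the bulb libraries and had 1 read there, a ratio of 30.2 (5.34 to 1199).

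Pbx3, a TALE cofactor that binds DNA with other homeodomain proteins, had the highest level of the lower genes. Pbx3 (ENSMUSG00000038718, chromosome 2, 34171457 to 34373142) stood at 269 and 310 CPM in left 1037 and 1039, at 237, 243 and 257 CPM in right 1037, 1038 and 1039, and at 23.3 CPM (20.9 to 26.0) in the library labelled left 1038, 11-fold below the median. The related Pbx2 stood at 56.9 CPM there against 57.5 to 66.9 CPM, so the gap was not shared by both. Pou3f1, a POU factor, stood at 5.26 to 6.28 CPM in the bulb and had 9 reads there, 9.76-fold lower. Zfhx3, a very large zinc finger homeobox protein, lay just past the 4-fold line, with 7.95 to 10.1 CPM against 2.13 CPM (1.45 to 3.02), 4.08-fold lower. Its log2 ratio was -2.03, and with TMM scaling -1.999, short of 4-fold.

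**Figure D2:**
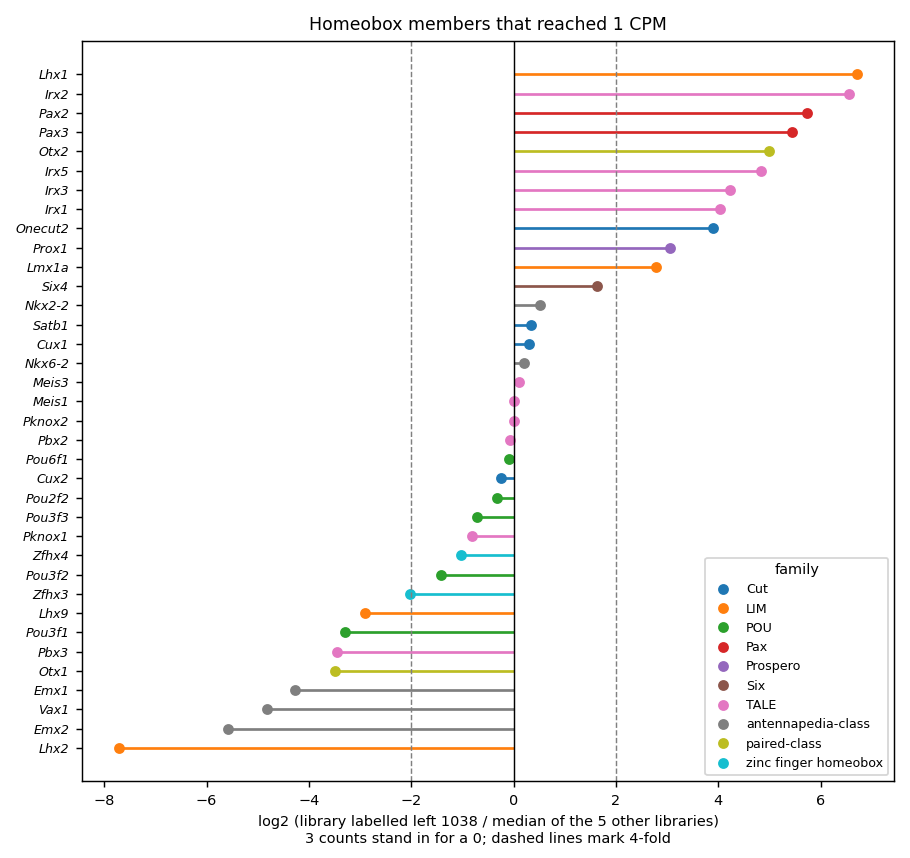
log2 ratio of the library labelled left 1038 to the median of the 5 bulb libraries on the horizontal axis, for the 36 genes that reached 1 CPM, coloured by family, with 3 counts in place of a 0 and dashed lines at 4-fold. LIM genes stand at both ends, with Lhx1 at the top and Lhx2 at the bottom, all 4 Irx genes lie right of 4-fold, and 16 genes lie between the dashed lines.

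The 16 genes within 4-fold hold 5 of the 10 TALE factors, 4 of the 6 POU factors and the Cut factors other than the Onecut genes. Meis1, Meis3 and Pknox2, TALE cofactors, stood at 69.2, 41.0 and 40.1 CPM in the library labelled left 1038, inside bulb ranges of 57.3 to 73.3, 33.5 to 44.3 and 38.8 to 47.8 CPM. Pou2f2 and Nkx6-2, the latter a factor of oligodendrocytes, also lay inside the range of the bulb libraries. The other 11 lay outside it by less than 4-fold. Six4 was nearest to the line above, with 4.39 CPM against 1.09 to 1.86 CPM (3.08-fold), and Pou3f2 was nearest below, with 12.8 CPM against 30.7 to 44.3 CPM (2.66-fold lower). Zfhx4, Pknox1 and Pou3f3 were 2.03-fold, 1.77-fold and 1.65-fold lower, Cux2 1.19-fold lower, and Cux1 and Satb1 1.23-fold and 1.26-fold higher. Pou6f1 stood at 122 CPM against 128 to 138 CPM. Nkx2-2, like Nkx6-2 a factor of the oligodendrocyte lineage, stood at 5.15 CPM against 2.85 to 5.04 CPM. The summed level of 4 oligodendrocyte markers was 1642 CPM against 1730 to 2198 CPM, and that of 4 markers of their precursors was 61.0 CPM against 114 to 143 CPM.

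The remaining 12 genes stayed under 1 CPM in the library labelled left 1038 and in the bulb median, with 0.842 CPM as the highest value in any library (Lmx1b in left 1037). Lhx8 and Six3 had 0 reads in all 6 libraries, which allows up to 0.206 CPM in a library. In the annotation the exons of Six3 overlap those of Six3os1 and Gm28528. In all, 19 of the 48 genes share exon bases with another annotated gene, among them Otx2, Emx2, Irx3, Prox1 and Pou3f1 of the genes over 4-fold, and for 2 (Nkx6-2 with Inpp5a, Pbx2 with Gpsm3) that gene has a row in the count table. The sources used here do not say whether strand was used in counting, so such reads cannot be told apart. En1, which acts where the cerebellum forms, had 1 read in the library labelled left 1038 and 1 in right 1039. Its paralogue En2, from the list of other homeobox genes and named after its values were seen, stood at 213 CPM there against 0.205 to 0.996 CPM in the bulb. Lmx1b had 30 reads over the bulb libraries and 0 in the library labelled left 1038, with an upper limit of 0.681 for the ratio to the pooled bulb level (95% exact interval). Lhx6 had 37 and 8 reads, a ratio of 1.13 (0.453 to 2.46). Gbx2, Gsx2, Isl1, Pou4f1, Onecut1, Pax5 and Pax8 had at most 9 reads over the bulb libraries and at most 3 in the library labelled left 1038.

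Levels can be set against each other only per length of transcript. In CPM per kilobase of annotated exon, the highest bulb medians were 42.0 for Pbx3, 18.9 for Pou6f1, 16.5 for Pbx2 and 12 for Meis3. In the library labelled left 1038 Lhx1 led with 19.4, followed by Pou6f1 with 17.6, Pbx2 with 15.6 and Meis3 with 12.9, while Pbx3 stood at 3.82 and Lhx2 at 0.0312. Otx2 and Prox1 stood at 8.99 and 7.56 CPM per kilobase there and at 0.283 and 0.911 in the bulb median. Thus 3 of the 4 leading genes were the same in both. At the top Lhx1, at 0.184 in the bulb median, stood in place of Pbx3.

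Other homeobox genes, from a list written with earlier results of these data known, and cofactors were counted in the same way. Of 68 other homeobox genes 36 reached 1 CPM, of which 7 were over 4-fold higher and 11 over 4-fold lower in the library labelled left 1038, beside 3.56% and 8.74% of all genes. The widest gaps were downward. Dlx5, a factor of forebrain interneurons, stood at 42.4 to 46.1 CPM in the bulb libraries and had 0.0686 CPM, or 1 read, there. Dlx1 was 529-fold and Meis2, a TALE relative of Meis1, 499-fold below the bulb median, so Meis2 was far lower where Meis1 was inside the bulb range. All 14 listed cofactors of LIM and TALE factors reached 1 CPM, with 1 over 4-fold higher and 2 lower, counts too small to set apart from those shares of all genes. Tle2, a Groucho corepressor, was 4.07-fold higher. Lmo3, a LIM-only protein that competes for the LIM cofactor, was 65.1-fold lower, with 0.618 CPM against 32.9 to 53.2 CPM, and Ldb2, a LIM-domain-binding cofactor, was 6.03-fold lower.

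The comparison of sides asks whether these factors differed between the bulb on the plugged and on the open side, with left 1037 and 1039 against right 1037, 1038 and 1039. No homeobox gene on the list passed the test. Of the 28 with enough reads to be tested, 0 were called higher and 0 lower by edgeR's quasi-likelihood test at an adjusted p under 0.05, with 5 at an unadjusted p under 0.05. limma-voom and DESeq2 also called 0, with 5 and 3 at an unadjusted p under 0.05. The same test called 456 (3.16%) of all 14412 genes higher on the left and 931 (6.46%) lower. Scaled by total library size only, edgeR called 975 higher and 589 lower, among them 2 of the 28 genes as higher.

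Those 2 were the POU factors Pou3f2 and Pou3f3, regulators of neuronal differentiation that also had the smallest p by the first scaling. Pou3f2 stood at 44.3 and 37.7 CPM in left 1037 and 1039 and at 30.7, 30.9 and 34.0 CPM in right 1037, 1038 and 1039. Both left libraries lie above all right ones, and its log2 fold change (left over right) was 0.28 (SE 0.10, edgeR, adjusted p = 0.105), or 0.36 (adjusted p = 0.0424) by total library size. It was 0.16 (edgeR, adjusted p = 0.458) without left 1037. Pou3f3 stood at 67.3 and 68.4 CPM on the left and at 58.0, 58.4 and 53.2 CPM on the right, with 0.18 (SE 0.07, edgeR, adjusted p = 0.157), or 0.26 (adjusted p = 0.0436) by total library size. The sides do not overlap for Pou3f3 either. In CPM, both left libraries lay above all 3 right ones for 33.2% of all genes tested.

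Pou2f2, another POU factor, stood at 28.3 and 23.2 CPM on the left and at 18.0, 15.8 and 22.5 CPM on the right, with 0.37 (SE 0.15, edgeR, adjusted p = 0.159). The lower left library and the highest right one are close together. Meis1, the gene with the lowest value of the 28, stood at 57.3 and 68.7 CPM on the left and at 62.9, 73.3 and 70.8 CPM on the right, so the sides overlap, with -0.21 (SE 0.09, edgeR, adjusted p = 0.193).

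**Figure D3:**
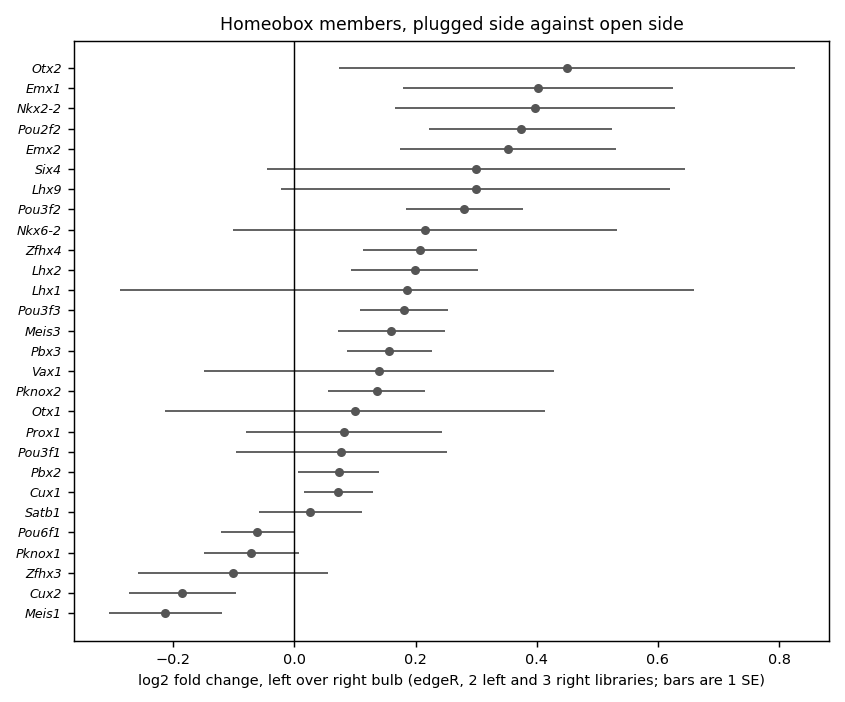
log2 fold change, left over right, on the horizontal axis for the 28 tested genes, from edgeR with 2 left and 3 right libraries, with bars of 1 SE. Values run from -0.21 (Meis1) to 0.45 (Otx2), 23 lie above 0 and 5 below, and 0 passed the test.

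The forebrain factors that were nearly missing from the library labelled left 1038 did not pass the test between the sides. Lhx2, Emx1, Emx2 and Otx1 had log2 fold changes of 0.20, 0.40, 0.35 and 0.10 (SE 0.11, 0.22, 0.18 and 0.31), with adjusted p of 0.28, 0.303, 0.26 and 0.882 by edgeR. Pbx3 had 0.16 (SE 0.07, edgeR, adjusted p = 0.20). Otx2 had 0.45 (SE 0.38, edgeR, adjusted p = 0.511), and Prox1 had 0.08 (SE 0.16, adjusted p = 0.804). Lhx1 and Six4 had 0.19 and 0.30 (SE 0.47 and 0.34), so at their low levels a difference of the size seen in Pou3f2 was not detectable.

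Most of the small differences pointed to the left. The log2 fold change was above 0 for 23 of the 28 genes and for 51.0% of all genes tested, and its median was 0.16 over the 28 and 0.005 over all. Both left libraries lay above all 3 right ones in CPM for 16 of the 28 and for 33.2% of all genes tested, and both lay below for 0 of the 28 and for 13.2% of all. With TMM scaling the counts were 11 of 28 (20.1% of all) above and 0 of 28 (21.9% of all) below. The genes were listed with these data known, so nothing is inferred from these counts about the list.

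Single genes of some marker lists also passed the test between the sides, beside the 3.16% of all genes called higher and 6.46% called lower. No marker of Purkinje cells (4 tested), Bergmann glia (3), cortex and hippocampus (5), oligodendrocytes (4), microglia (3) or endothelium (3) was called. In the bulb libraries the projection neuron list had 1 of 5 genes higher (Tbx21, log2 fold change 0.65, edgeR, adjusted p = 0.0058) and 1 lower, with a summed level of 1561 and 1821 CPM on the left and 1651 to 1812 CPM on the right. The list of interneurons and sensory axons had 1 of 6 higher and 4 lower, with 2397 and 2661 CPM on the left and 3089 to 3280 CPM on the right. Among cerebellar granule cell markers 2 of the 5 tested were higher, Neurod1 by 1.48 (edgeR, adjusted p = 0.000224) and Zic1 by 0.28 (adjusted p = 0.0134), with summed levels of 297 and 313 CPM on the left and 222 to 238 CPM on the right, while Cbln3, Gabra6, Fat2 and Barhl1 stayed at 1.26 CPM or less in each. Choroid plexus markers had 2 of 3 higher, Ttr and Kl, with summed levels of 188 and 16.7 CPM on the left and 13.8 to 16.1 CPM on the right. Ttr stood at 171 CPM in left 1037 and at 7.10 CPM in left 1039, the latter inside the right range of 5.71 to 7.44 CPM, so its call rests on left 1037. Astrocyte markers had 2 of 3 higher, Gfap and Aqp4, and the 3 summed to 855 and 871 CPM on the left and 461 to 548 CPM on the right. Gfap made up most of that gap, at 543 and 578 CPM on the left and 221 to 297 CPM on the right. Aldh1l1 pointed the other way and was not called (log2 fold change -0.23, edgeR, adjusted p = 0.158). Markers of oligodendrocyte precursors had 2 of 4 lower, at 114 and 116 CPM on the left and 137 to 143 CPM on the right. The part of these lists in the values above was not tested.

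Cofactors of the LIM factors did pass the test. Of 14 cofactors tested 3 rose on the left and 0 fell, and of 35 other homeobox genes 1 rose and 0 fell. The test called 3.16% of all genes higher and 6.46% lower. Ssbp3, a single-stranded-DNA-binding partner that stabilises the LIM complex, stood at 95.5 and 95.5 CPM in left 1037 and 1039 and at 70.2, 63.9 and 65.9 CPM in right 1037, 1038 and 1039. It rose by 0.44 on the log2 scale (SE 0.07, edgeR, adjusted p = 0.00406), and DESeq2 with the mouse as a block did not call it (adjusted p = 0.0767). Its partner Ldb1, the adaptor that joins LIM factors, stood at 163 and 166 CPM on the left and at 126, 122 and 141 CPM on the right. Ldb1 rose by 0.26 (SE 0.07, edgeR, adjusted p = 0.0416), a call that ended without any 1 of left 1037, left 1039, right 1037 and right 1038 (adjusted p up to 0.121) and in blocked DESeq2 (adjusted p = 0.477). Exons of Ldb1 overlap those of Pprc1, another gene of the table.

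Ldb2, the second adaptor, stood at 9.26 and 8.83 CPM on the left and at 5.58, 4.57 and 6.21 CPM on the right, with 9.05 ± 0.309 CPM (SD, n = 2) against 5.45 ± 0.827 CPM (SD, n = 3). It rose by 0.65 (SE 0.18, edgeR, adjusted p = 0.0491). That call is at the threshold and ended without any 1 of the 5 libraries (adjusted p up to 0.151), in the fit blocked by mouse (adjusted p = 0.0874) and in DESeq2 (adjusted p = 0.0789). Six5, of the sine oculis family, stood at 10.6 and 9.09 CPM on the left and at 4.43, 5.17 and 4.85 CPM on the right, and rose by 0.95 (SE 0.17, edgeR, adjusted p = 0.00806). The sides do not overlap in CPM for any of these 4 genes. The 4 were picked by the test on the same libraries, and 33.2% of all genes tested had both left libraries above all 3 right ones. Six4, a relative of Six5, did not pass and Six3 had no reads.

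**Figure D4:**
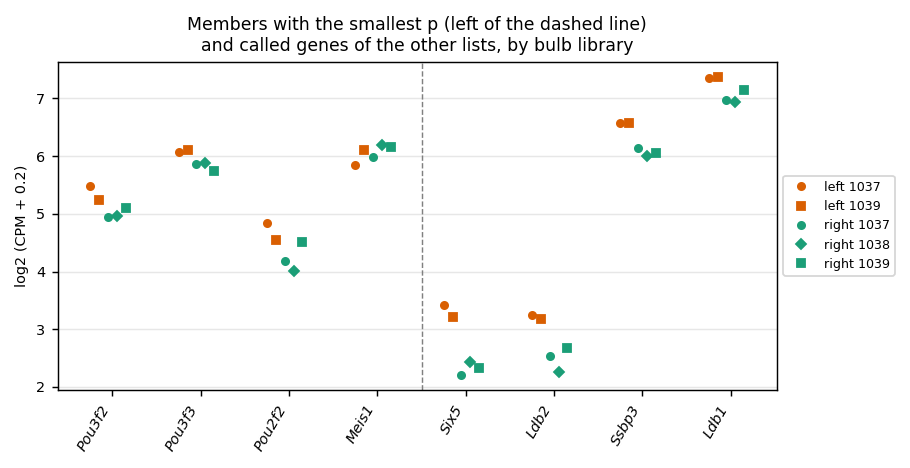
Level as log2 (CPM + 0.2) on the vertical axis in the 2 left (orange) and 3 right (green) bulb libraries, for the 4 homeobox genes with the smallest p, left of the dashed line, and the 4 called genes of the other homeobox and cofactor lists. Left points lie above all right points for Pou3f2, Pou3f3, Pou2f2 and for Six5, Ldb2, Ssbp3 and Ldb1, and the sides overlap for Meis1. On this scale by library total the same holds for 33.2% of all genes tested. With TMM scaling it no longer holds for Pou2f2.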

How the data were processed

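Polyadenylated RNA of both bulbs of 3 mice was sequenced, giving 6 libraries of 14571453 to 15590938 counts. The deposited table gives whole-number counts of reads per gene and library with no normalization, and RPKM values, per the file headers. The RPKM values deposited by the authors rest on a gene length of their own and were not used. Per the submitters' processing notes, GRCm38 was the build, and the tools were TopHat2, HTSeq 0.6.1p2, cutadapt 1.2.1 and DESeq 1.18.0. The sources used here do not say how strand and reads with several positions were treated. Identifiers were matched to symbols and to GENCODE coordinates on GRCm38, with 21852 of 22095 matched.

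CPM is the count relative to the library total. For the library labelled left 1038 a gene counted as higher or lower when it lay over 4-fold from the median of the 5 other libraries, outside their range, and reached 1 CPM, with 3 counts in place of a 0. Poisson intervals and exact conditional intervals of ratios are 95%. Sides were compared in the 5 bulb libraries with edgeR 4.0.16 (quasi-likelihood test, TMM, filterByExpr) in R 4.3.3, with Benjamini-Hochberg adjustment over all genes. SE is the log2 fold change divided by the root of F. Tests are two-sided. The alternatives, DESeq2 1.42.0, limma-voom (limma 3.58.1), other scalings, filters and left-out libraries, are in the closing section. Genes named with values in each library were those over 4-fold, those called between sides or else the 4 with the smallest p, and up to 4 counted genes of each other list, of which 1 is not reported here. The members and lists were chosen with earlier results of these data known.

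Both bulbs of a mouse carry its number and so are paired by design. Deviations from the side means correlated at 0.233 in mouse 1037 and 0.248 in mouse 1039 in the 5 libraries. With 2 left libraries the left deviations are mirror images of each other. Left 1037 with right 1039 thus gave -0.248, and left 1039 with right 1037 gave -0.233. The 2 values are therefore not separate evidence that the numbers pair the bulbs. The left-right test was also run on simulated counts of 14412 genes. Of the genes simulated with 1.5-fold, 2-fold and 4-fold changes it called 67.2%, 82.1% and 95.5%, and among all its calls 8.94% were of unchanged genes. Mice are separate animals, but p-values rest on 2 and 3 libraries.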

Additional observations from a re-analysis of the deposited data

How the results depend on the processing

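The counts of 11 higher and 9 lower genes in the library labelled left 1038 were within 1.5 times under every alternative run (TMM and RLE scaling, 2-fold and 8-fold, 5 CPM and no minimum, each bulb library left out), except that 5 genes were lower with a minimum of 5 CPM. Over all genes 2-fold gave 1330 higher and 2434 lower, and 8-fold gave 250 and 667. All 20 named folds kept their sign in all 140 alternatives, and 20 of these moved by more than 1 SD of the bulb libraries, all for Lmx1a, Irx2, Irx5, Pax2 and Pax3, which had at most 7 reads in any bulb library. Pax2 has an SD of 0, so any shift counted for it, though its values stayed between 5.73 and 5.78. Between sides 0 of the listed genes were called under every alternative but scaling by total library size, which called 2 higher. Over all genes the counts higher and lower were 975 and 589 with that scaling, 76 and 356 with the mouse as replicate block in DESeq2, 172 and 488 without mouse 1038, and 0 and 0 with all 6 libraries, with or without the replicate block. With 1 library left out they ranged from 172 to 366 and from 479 to 768. The replicate block in edgeR gave 492 and 1061. It ended the call of Ldb2 and changed no other call of a named gene. With all 6 libraries Pou3f2 and Pou3f3 reversed to -0.078 and -0.045, and with the replicate block they had -0.234 and -0.092, and Ldb2 had -0.232. Depth limits genes under 1 CPM, where 3 counts are 0.192 to 0.206 CPM. The cause of these differences was not tested.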
